A study of Mus musculus with 12 samples.

Results

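The genes described here are 10 receptor genes through which haematopoietic cells receive cytokine signals: Flt3, Csf1r, Csf3r, Csf2ra, Csf2rb, Csf2rb2, Il3ra, Il7r, Il6st and Il1r1. They were chosen by name, as 10 of the 55487 genes listed in each gene table, and all 10 passed the filter on low counts that left 16649 genes for testing. RNA was sequenced from sorted LSK cells, the lineage-negative, Sca1-positive, c-Kit-positive fraction of mouse bone marrow that contains the stem cells and early multipotent progenitors. The libraries came from 3 genotypes with 4 libraries each: Yy1+/+, the wild-type control, Yy1-/-, and Yy1-/- Smc3+/-. Yy1 encodes Yin Yang 1, a zinc finger transcription factor, and Smc3 encodes a subunit of the cohesin ring. The allele design, the driver of any Cre, the age and sex of the mice and the number of mice per library are not given in the labels or notes used here.

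Cytokine receptors set which outside signals a progenitor can read. FLT3 and CSF1R are receptor tyrosine kinases, the first for FLT3 ligand on multipotent and lymphoid-primed progenitors and dendritic cell precursors, the second for M-CSF and IL-34 on monocytes and macrophages. The other haematopoietic receptors of the group mostly lack a kinase of their own and signal through JAK and STAT proteins. CSF3R binds G-CSF. CSF2RA and IL3RA are the ligand-specific alpha chains for GM-CSF and IL-3, which signal together with the common beta chain CSF2RB, and CSF2RB2 is a second beta chain of the mouse that serves IL-3 only. IL7R is the alpha chain for IL-7 and TSLP in the lymphoid lineage, IL6ST (gp130) is the shared signalling chain of the IL-6 family, and IL1R1 is the signalling receptor of IL-1, which works through the adaptor MYD88.

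Library depth, as summed expected counts, ran from 38671354 to 69086104, with Yy1+/+ replicate 2 the deepest. Yy1 mRNA was 33.9 to 41.3 CPM (depth-scaled counts, with TMM factors) in Yy1+/+, 0.407, 0.996, 5.01 and 12.2 CPM in Yy1-/- replicates 1 to 4, and 0.772, 0.795, 4.45 and 0.944 CPM in Yy1-/- Smc3+/- replicates 1 to 4, so 3 libraries labelled Yy1-/- kept more Yy1 reads than the other 5. Smc3 mRNA was at 254 to 344 CPM under the Smc3+/- label, at 199.8 to 306 CPM in Yy1-/- and at 159.7 to 214 CPM in Yy1+/+. The ranges of the 2 groups labelled Yy1-/- overlapped. The Smc3+/- label was thus not borne out at the level of Smc3 mRNA, and the group is named throughout as labelled. Transcripts of both positive sort markers were present in every library, with Kit at 422 to 981 CPM in Yy1+/+ and 100.1 to 373 CPM in the other 8 libraries, and Ly6a, which encodes Sca1, at 150.3 to 380 CPM over all 12. In bulk RNA, fewer cells of a type and less RNA per cell cannot be told apart.

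The receptor genes rose more often than they fell in both groups labelled Yy1-/-. In Yy1-/- against Yy1+/+, 6 of 10 rose (Csf1r, Csf2ra, Csf2rb, Csf2rb2, Il7r and Il1r1), Flt3 fell, and Csf3r, Il3ra and Il6st did not pass the test, where a gene is called when its Benjamini-Hochberg adjusted p from edgeR's quasi-likelihood test was under 0.05. This count of 7 called stands beside a background of 35.2% of all genes tested, 16.3% higher and 18.8% lower. Under the Yy1-/- Smc3+/- label, 5 rose relative to Yy1+/+ (Csf2ra, Csf2rb, Csf2rb2, Il7r and Il1r1) and Csf3r fell, 6 of 10 beside a background of 29.9%, with 13.1% higher and 16.7% lower. The libraries of the 2 genotypes did not overlap for 5 of the 10 genes in the first comparison and 7 in the second, beside 30.9% and 32.2% of all genes tested. The median log2 fold change of the 10 genes was 1.02 and 1.05, beside 0.01 and 0.02 over all genes tested. On the log2 TPM scale the median of all genes was itself shifted, by -0.18 and -0.11. Both comparisons share the Yy1+/+ libraries and are therefore not independent of each other.

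Markers of several other cell states differed between these groups. Of 10 LSK and stem cell markers, 7 fell (Kit, Slamf1, Procr, Mecom, Hlf, Meis1 and Mllt3) and Cd48, which is low on stem cells and higher on other progenitors, rose in both comparisons with Yy1+/+, with medians of -2.11 and -1.92. Their summed level was 2251 to 2944 CPM in Yy1+/+ and 1657 to 1954 CPM in the 8 libraries labelled Yy1-/-. A large part of this sum was Cd34, which was not called, at 892 to 1039 CPM in Yy1+/+ and 904 to 1158 CPM in the other 8 libraries. Of 10 erythroid markers 2 and 4 fell and 0 rose, and their sum was 1737 to 2636 CPM in Yy1+/+, against 189 to 962 CPM for Yy1-/- and 235 to 603 CPM for Yy1-/- Smc3+/-. Most of the sum in Yy1+/+ was Car2, at 1169 to 1756 CPM. Hba-a1 was at 3.98 to 20.9 CPM in Yy1+/+, but at 1.09, 0.239, 60.9 and 43.9 CPM in Yy1-/-. In Yy1-/- Smc3+/- it was at 74.7, 1.52, 27.0 and 0.0993 CPM. Hbb-bs was also above its Yy1+/+ range in some libraries of both groups labelled Yy1-/-. Of 7 megakaryocyte markers tested 4 fell in each comparison, and the sum of all 8 was 795 to 1091 CPM in Yy1+/+ and 96.3 to 233 CPM in the other libraries, with Gp6 at 0 throughout Yy1+/+ and Yy1-/- Smc3+/-. Of 8 mast cell and basophil markers 3 rose and 2 fell in each comparison, and of 9 dendritic cell markers 3 and 2 rose and 0 fell. The background in the 2 comparisons was 35.2% and 29.9% of all genes called. Beside it stood 80% in each for LSK and stem cell markers, and 20% and 40% for erythroid markers. Megakaryocyte markers gave 57.1% in each, and mast cell and basophil markers 62.5% in each. The dendritic shares, 33.3% and 22.2%, were not above the background. The part of such shifts in the results for the receptor genes was not tested.

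**Figure D1:**
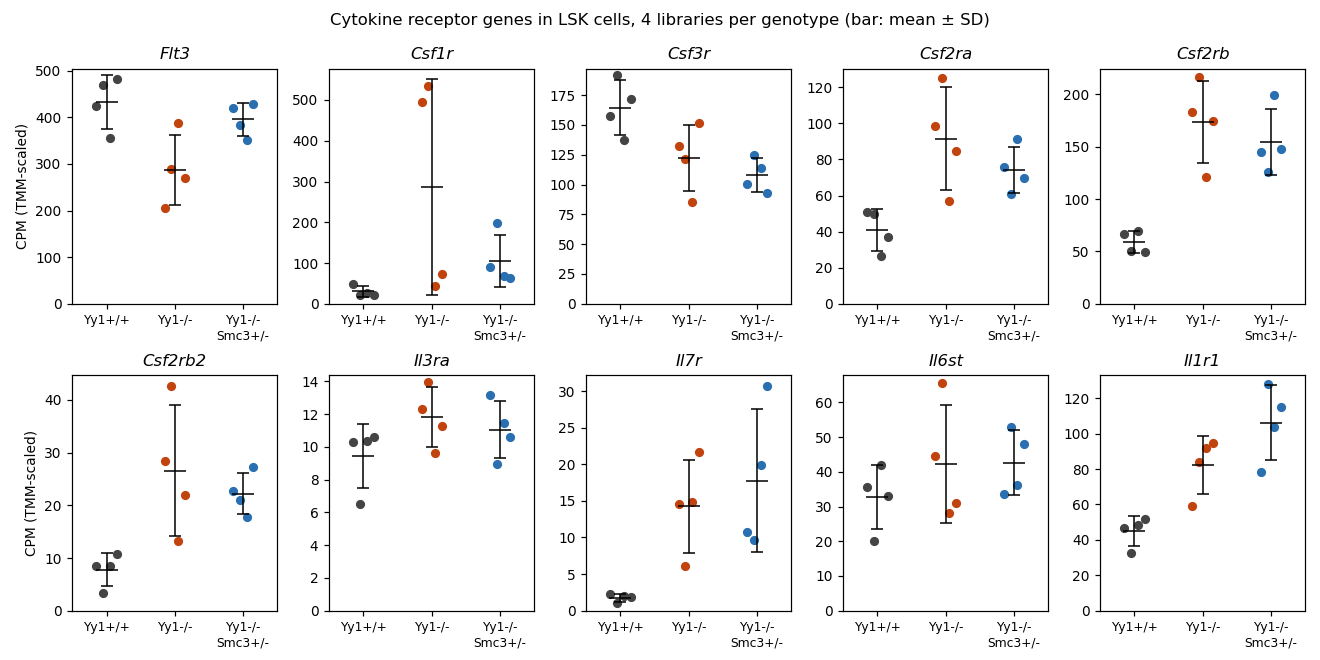
TMM-scaled level (y axis, CPM) of each receptor gene in the 4 libraries of each genotype (points, replicates 1 to 4 from left to right), with mean ± SD as black bars. The libraries of both groups labelled Yy1-/- lie above all Yy1+/+ libraries for Csf2ra, Csf2rb, Csf2rb2, Il7r and Il1r1, while Csf1r is spread from 43.2 to 534 CPM within Yy1-/-.

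The genes of both beta chains rose in both comparisons with Yy1+/+. Csf2rb (ENSMUSG00000071713.6, chromosome 15:78325752-78353847, plus strand, GRCm38) and Csf2rb2 (ENSMUSG00000071714.7, chromosome 15:78282507-78305721, minus strand) are neighbours and near-identical copies. Their coding sequences of 2691 and 2637 bases were identical at 95.2% of 2631 aligned bases. Of all 50-base windows of the Csf2rb coding sequence, 26.0% occur unchanged in that of Csf2rb2. A read that lies wholly within such a window cannot be assigned by its own sequence alone. The first 120 coding bases, taken from the GENCODE M21 transcripts, are shown to make this concrete, with the 4 bases that differ in capitals.
Csf2rb: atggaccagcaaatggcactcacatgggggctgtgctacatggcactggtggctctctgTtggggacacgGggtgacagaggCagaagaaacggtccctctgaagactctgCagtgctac
Csf2rb2: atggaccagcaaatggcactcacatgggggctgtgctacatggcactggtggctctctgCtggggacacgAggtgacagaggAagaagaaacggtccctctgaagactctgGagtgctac
Expected counts that were not whole, the trace of such divided reads, occurred for both genes in 11 of 12 libraries, and the split between them is therefore an estimate.

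Csf2rb stood at 66.3, 50.04, 69.4 and 49.2 CPM in Yy1+/+ replicates 1 to 4, at 183, 216, 121 and 174 CPM in Yy1-/-, and at 145, 126, 199 and 148 CPM in Yy1-/- Smc3+/-. Every library of both groups labelled Yy1-/- lay above every Yy1+/+ library. The rise was 2.96-fold in Yy1-/- (a log2 change of 1.56 ± 0.20 SE, edgeR adjusted p = 0.000109) and 2.63-fold in Yy1-/- Smc3+/- (1.40 ± 0.20, edgeR adjusted p = 0.000255). Csf2rb2 was scarcer, at 8.55, 3.30, 8.40 and 10.7 CPM in Yy1+/+, 28.3, 42.7, 13.2 and 22.0 CPM in Yy1-/-, and 22.8, 21.0, 17.9 and 27.3 CPM in Yy1-/- Smc3+/-. Its groups did not overlap with Yy1+/+ either, and the log2 fold changes were 1.80 ± 0.37 (edgeR adjusted p = 0.00261) and 1.54 ± 0.37 (edgeR adjusted p = 0.00791), falling to 1.16 in Yy1-/- on the log2(TPM + 1) scale, where the pseudocount compresses low genes.

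Because reads are divided between the copies, their proportion was examined as well. Csf2rb2 made up 11.7 ± 4.78% of the summed TPM (a length-corrected level) of the pair in the Yy1+/+ libraries, 12.8 ± 3.01% in Yy1-/- and 13.1 ± 3.24% in Yy1-/- Smc3+/- (SD, n = 4). The differences of 1.18, 1.43 and 0.25 percentage points were smaller than the SDs (exact two-sided permutation p = 0.743, 0.629 and 0.914, all 0.914 after adjustment over the 3 pairs of genotypes). A difference in the split was thus not detected, and its direction changed when single libraries were left out.

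Csf2ra (ENSMUSG00000059326.7, chromosome 19:61223957-61228429, minus strand), the GM-CSF alpha chain, rose with the beta chain. It was at 50.8, 49.96, 26.4 and 37.1 CPM in Yy1+/+, at 98.6, 125, 56.7 and 84.9 CPM in Yy1-/-, and at 75.9, 60.8, 91.1 and 69.6 CPM in Yy1-/- Smc3+/-. The ranges did not overlap with Yy1+/+, although Yy1-/- replicate 3 came within a few CPM of it. The log2 fold change was 1.15 ± 0.25 in Yy1-/- (2.23-fold, edgeR adjusted p = 0.00355) and 0.86 ± 0.25 in Yy1-/- Smc3+/- (1.81-fold, edgeR adjusted p = 0.0210). The second call was lost without Yy1+/+ replicate 3 (0.69, edgeR adjusted p = 0.0564), without replicate 4 of the same genotype (0.81, 0.0590) and also without Yy1-/- Smc3+/- replicate 3 (0.74, 0.0613).

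Il3ra (ENSMUSG00000068758.8, chromosome 14:14346275-14356011, plus strand), the IL-3 alpha chain, stayed in a narrow band. Its level was 10.3, 6.54, 10.4 and 10.6 CPM in the Yy1+/+ libraries, 9.65 to 13.99 CPM in Yy1-/- and 8.98 to 13.2 CPM in Yy1-/- Smc3+/-. The groups overlapped, and the log2 fold changes of 0.33 (95% interval -0.15 to 0.81, edgeR adjusted p = 0.269) and 0.23 (-0.25 to 0.71, edgeR adjusted p = 0.461) did not pass. Both intervals leave room for a modest difference and lie below the changes measured for Csf2rb.

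Within a library, the balance of beta to alpha chain was measured as the log2 ratio of TPM + 1, a scale on which library size nearly cancels. Csf2rb over Il3ra was 0.65 ± 0.27 in the Yy1+/+ libraries, 1.89 ± 0.17 in Yy1-/- and 1.83 ± 0.25 in Yy1-/- Smc3+/- (SD, n = 4). Both groups labelled Yy1-/- gave the smallest p that 4 against 4 libraries allow against Yy1+/+ (exact two-sided permutation p = 0.0286), which is 0.0857 after adjustment over 6 ratio comparisons, and hence short of the threshold. Csf2rb over Csf2ra was -0.99 ± 0.56, -0.56 ± 0.15 and -0.47 ± 0.08 (exact permutation p = 0.2 and 0.143 against Yy1+/+, adjusted 0.3 and 0.286). Beta chain mRNA stood higher relative to the IL-3 alpha chain in all 8 libraries labelled Yy1-/-, while no shift against the GM-CSF alpha chain was detected.

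Csf1r (ENSMUSG00000024621.16, chromosome 18:61100598-61132149, plus strand), the M-CSF receptor, had the largest log2 fold change in Yy1-/- among the 10 genes and a wide spread between libraries. It was at 49.3, 22.6, 26.6 and 22.3 CPM in Yy1+/+, at 495, 534, 43.2 and 73.9 CPM in Yy1-/-, and at 90.3, 199, 67.2 and 63.3 CPM in Yy1-/- Smc3+/-. Yy1-/- replicates 1 and 2 were far above all other libraries, and Yy1-/- replicate 3 lay below the highest Yy1+/+ library. The log2 fold change was 3.25 ± 0.72 in Yy1-/- (9.48-fold, edgeR adjusted p = 0.00407). It was 2.81 without Yy1-/- replicate 1 and 2.75 without Yy1-/- replicate 2 (edgeR adjusted p = 0.0135 and 0.0123), and 4.06 without the 3 libraries that kept Yy1 reads (edgeR adjusted p = 0.000152). In Yy1-/- Smc3+/- all 4 libraries lay above Yy1+/+, but the log2 fold change of 1.80 ± 0.69 missed the threshold (edgeR adjusted p = 0.0657), which it passed when only these 2 genotypes were fitted (1.77, edgeR adjusted p = 0.00785) and without the libraries that kept Yy1 reads (1.92, 0.00579).

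Several other transcripts of monocytes and macrophages rose beside Csf1r. The summed level of 11 further markers of these cells was 6314, 3979, 555 and 879 CPM in Yy1-/- replicates 1 to 4. It was 503 to 1259 CPM in Yy1+/+ and 697 to 1333 CPM in Yy1-/- Smc3+/-, and no marker was at 0 in a whole group. The sum was far above the Yy1+/+ range only in Yy1-/- replicates 1 and 2. Most of it, there and in Yy1+/+, was Lyz2, which was not called. Lyz2 was at 342 to 821 CPM in Yy1+/+ and at 4248, 2806, 177 and 348 CPM in Yy1-/-. Of these 11 markers, 8 rose and 0 fell in Yy1-/-, and 6 rose and 0 fell in Yy1-/- Smc3+/-, with median log2 fold changes of 2.53 and 1.90. The shares called were 72.7% and 54.5%, beside 35.2% and 29.9% of all genes. Adgre1, which encodes the macrophage antigen F4/80, was at 439, 207, 7.27 and 22.1 CPM in Yy1-/- and at 1.49 to 8.45 CPM in Yy1+/+. Ms4a6c rose from 30.9 ± 5.96 to 268 ± 200.3 CPM (log2 fold change 3.12 ± 0.41, edgeR adjusted p = 0.00014), and Ly6c2, a marker of inflammatory monocytes, did not pass. The part of such cells in the result for Csf1r was not tested. The exons of Csf1r also share 873 of 5774 bases (15.1%) with the opposite-strand gene Hmgxb3, which unstranded reads cannot resolve; Hmgxb3 was at 36.8 to 82.9 CPM in Yy1+/+ and 25.7 to 48.6 CPM in Yy1-/-.

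**Figure D2:**
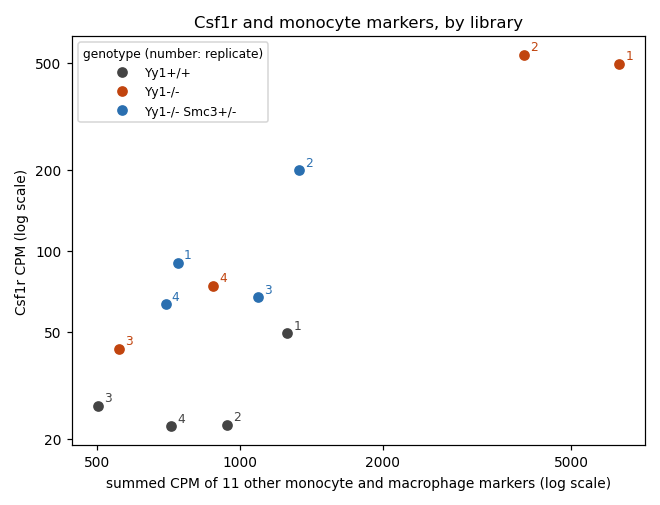
Csf1r level (y axis, CPM, log scale) against the summed level of 11 other monocyte and macrophage markers (x axis, CPM, log scale), each point 1 library, numbered by replicate and coloured by genotype. Yy1-/- replicates 1 and 2 stand apart on both axes, at 495 and 534 CPM of Csf1r and 6314 and 3979 CPM of the markers. In both, most of the marker sum is Lyz2, at 4248 and 2806 CPM.

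Csf3r (ENSMUSG00000028859.14, chromosome 4:126024550-126044440, plus strand), the G-CSF receptor of the granulocyte lineage, had lower means in both groups labelled Yy1-/-. It was at 158, 192, 138 and 171 CPM in Yy1+/+, at 132, 121, 85.4 and 152 CPM in Yy1-/-, and at 101, 125, 114 and 92.6 CPM in Yy1-/- Smc3+/-. Only the Yy1-/- Smc3+/- libraries all lay below Yy1+/+. There the fall was called (log2 fold change -0.61 ± 0.17, edgeR adjusted p = 0.0180), though not without Yy1-/- Smc3+/- replicate 4 (-0.54, edgeR adjusted p = 0.0603). In Yy1-/- the log2 fold change of -0.43 ± 0.17 missed the threshold (edgeR adjusted p = 0.0713), and it passed on the log2 TPM scale (-0.70, limma adjusted p = 0.00952) and without Yy1-/- replicate 4 (-0.57, edgeR adjusted p = 0.0285). Of 13 neutrophil and granulocyte progenitor markers, 2 rose and 0 fell in each comparison with Yy1+/+. This share of 15.4% was below the 35.2% and 29.9% of all genes called. The summed level of these markers was 2705 to 10649 CPM in Yy1+/+ and 4425 to 7358 CPM in Yy1-/-. In Yy1-/- Smc3+/- replicates 1 to 4 it was 2598, 1880, 17106 and 2601 CPM. Replicate 3, which kept Yy1 reads, was the only library of that group not below the Yy1+/+ range, and 10068 CPM of its sum was Mpo.

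Flt3 (ENSMUSG00000042817.15, chromosome 5:147330741-147400489, minus strand) had the highest mean level of the 10 genes in every genotype and fell in Yy1-/-. It was at 424, 471, 355 and 482 CPM in Yy1+/+, at 206, 289, 387 and 269 CPM in Yy1-/-, and at 419, 384, 352 and 429 CPM in Yy1-/- Smc3+/-. Yy1-/- replicate 3 reached into the Yy1+/+ range, and the Yy1-/- Smc3+/- libraries overlapped with Yy1+/+ throughout. The log2 fold change in Yy1-/- was -0.59 ± 0.17 (1.505-fold lower, edgeR adjusted p = 0.0172), and the call rested on Yy1+/+ replicate 4 to the extent that the adjusted p was 0.05003 without it (-0.54). For Yy1-/- Smc3+/- the value was -0.13 (95% interval -0.50 to 0.24, edgeR adjusted p = 0.605).

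Il7r (ENSMUSG00000003882.5, chromosome 15:9505788-9530176, minus strand), a lymphoid receptor, rose from a low base. It was at 2.27, 1.03, 1.98 and 1.85 CPM in Yy1+/+, at 14.5, 6.08, 14.8 and 21.6 CPM in Yy1-/-, and at 10.7, 9.68, 19.9 and 30.6 CPM in Yy1-/- Smc3+/-. The lowest library labelled Yy1-/- was above the highest Yy1+/+ library. The log2 fold change was 3.01 ± 0.49 in Yy1-/- (8.07-fold, edgeR adjusted p = 0.000545) and 3.33 ± 0.49 in Yy1-/- Smc3+/- (10.1-fold, edgeR adjusted p = 0.000307). On the log2(TPM + 1) scale, which understates low genes, these were 1.69 and 2.003.

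Markers of lymphoid cells did not move in 1 direction beside Il7r. Of 7 tested B lineage markers, Dntt, the terminal transferase of early lymphoid progenitors, fell in Yy1-/- from 180.3 ± 36.0 to 36.0 ± 27.9 CPM (log2 fold change -2.32 ± 0.57, edgeR adjusted p = 0.00721), and 0 rose. In Yy1-/- Smc3+/- 2 rose (Cd79a and Ebf1). These B lineage shares, 14.3% and 28.6%, were not above the 35.2% and 29.9% of all genes called. Of 10 tested T and NK cell markers 4 rose in each comparison with Yy1+/+, namely Cd3e, Cd3d, Cd3g and Trac, components of the T cell receptor complex, all at 9.43 CPM or less in every library. This was 40% called in each, beside the same shares of all genes. The summed level of the 9 B lineage markers was 219.7 to 288 CPM in the Yy1+/+ libraries, 57.1 to 131 CPM in Yy1-/- and 110.2 to 260.2 CPM in Yy1-/- Smc3+/-, with Rag1 at 0 in all Yy1-/- libraries. For the 11 T and NK cell markers it was 155 to 320.2, 51.4 to 214 and 82.2 to 268 CPM, with none at 0 in a whole group. In the Yy1+/+ libraries most of this sum was Nkg7, which was not called, at 120.4 to 259 CPM. The sum therefore does not follow the 4 T cell receptor genes that rose. Most of the B lineage sum in Yy1+/+ was likewise Dntt. The part of other cells in the result for Il7r was not tested.

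Il1r1 (ENSMUSG00000026072.12, chromosome 1:40225080-40317257, plus strand), the IL-1 receptor, rose in both groups labelled Yy1-/-. It was at 46.6, 32.8, 48.2 and 51.9 CPM in Yy1+/+, at 59.0, 84.1, 92.0 and 94.6 CPM in Yy1-/-, and at 78.1, 128, 104 and 115 CPM in Yy1-/- Smc3+/-. All 8 libraries labelled Yy1-/- were above all 4 Yy1+/+ libraries. The log2 fold change was 0.88 ± 0.20 in Yy1-/- (edgeR adjusted p = 0.00441) and 1.24 ± 0.20 in Yy1-/- Smc3+/- (edgeR adjusted p = 0.000572). The first was not called on the log2 TPM scale (0.57, limma adjusted p = 0.134) or without the libraries that kept Yy1 reads (0.64, edgeR adjusted p = 0.0843).

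Il6st (ENSMUSG00000021756.12, chromosome 13:112464070-112510086, plus strand), the gp130 chain, was at 20.1 to 42.1 CPM in the Yy1+/+ libraries, 28.1 to 65.5 CPM in Yy1-/- and 33.5 to 52.9 CPM in Yy1-/- Smc3+/-. The groups overlapped, with log2 fold changes of 0.37 (95% interval -0.24 to 0.99, edgeR adjusted p = 0.331) and 0.38 (-0.23 to 1.00, edgeR adjusted p = 0.337). Yy1+/+ replicate 2, the most deeply sequenced library, was the lowest of its genotype for Il6st and also for Il3ra, Il7r, Il1r1 and Csf2rb2.

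The libraries labelled Yy1-/- Smc3+/- and Yy1-/- were compared to see whether the receptor genes differ with the Smc3 label. None of the 10 was called by edgeR's quasi-likelihood test or by DESeq2, beside a background of 0.0360% of all genes tested. The libraries overlapped for all 10 (2.01% of all genes did not overlap), and 1 gene had an unadjusted p under 0.05, as 6.46% of all genes did. This was Flt3, which was higher with the Smc3+/- label by 0.46 on the log2 scale (95% interval 0.09 to 0.83, edgeR adjusted p = 0.756). Csf1r was lower by a log2 fold change of -1.45 (-2.90 to 0.01, edgeR adjusted p = 0.756), and without the 3 libraries that kept Yy1 reads, which left 2 against 3 libraries, it was called at -2.14 (edgeR adjusted p = 0.0462). The intervals of the steadier members were narrower, at -0.59 to 0.25 for Csf2rb and -0.06 to 0.79 for Il1r1. A change past the threshold in only 1 of the comparisons with Yy1+/+, as for Flt3, Csf1r and Csf3r, is therefore not shown to differ between the 2 groups labelled Yy1-/-.

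**Figure D3:**
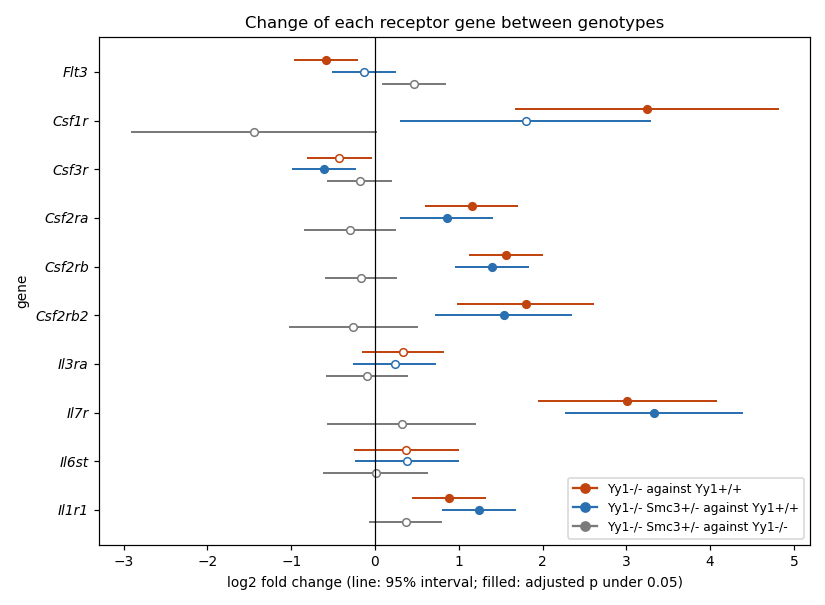
Log2 fold change (x axis) of each receptor gene (y axis) in the 3 comparisons, with 95% intervals as lines and filled points where the adjusted p was under 0.05. Csf2ra, Csf2rb, Csf2rb2, Il7r and Il1r1 are filled and to the right of 0 in both comparisons with Yy1+/+, and no point is filled between the 2 groups labelled Yy1-/-.

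Ordered by mean TPM, Yy1+/+ LSK cells held most Flt3 (178 ± 21.4 TPM, SD, n = 4), then Csf3r (77.4 ± 5.57), Csf2ra (37.3 ± 8.70), Csf2rb (18.4 ± 4.7999), Il1r1 (13.5 ± 3.88), Il3ra (11.4 ± 3.18), Csf1r (9.69 ± 4.54), Il6st (8.24 ± 3.07), Csf2rb2 (0.86 to 3.47) and Il7r (0.78 ± 0.28). Libraries of neighbouring genes were apart for the steps from Flt3 to Csf3r, Csf2ra and Csf2rb and from Il6st to Csf2rb2, and overlapped elsewhere. In Yy1-/- the mean of Csf1r (76.9 ± 70.9 TPM) came after that of Flt3 (98.6 ± 27.6) and before those of Csf2ra (67.8 ± 21.6), Csf3r (48.5 ± 13.6) and Csf2rb (44.8 ± 10.7), with overlap at every step down to Csf2rb. In Yy1-/- Smc3+/- Flt3 (143.9 ± 15.7 TPM) was again apart from the next gene, Csf2ra (58.3 ± 7.10). The share of Flt3 in the summed TPM of the 10 genes was 47.0 to 52.7% in the Yy1+/+ libraries, 16.5 to 44.6% in Yy1-/- and 33.8 to 41.4% in Yy1-/- Smc3+/-, below the Yy1+/+ range in all 8 libraries labelled Yy1-/-. This share also depends on the levels of the other members, and Flt3 itself was not called in Yy1-/- Smc3+/- against Yy1+/+.

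**Figure D4:**
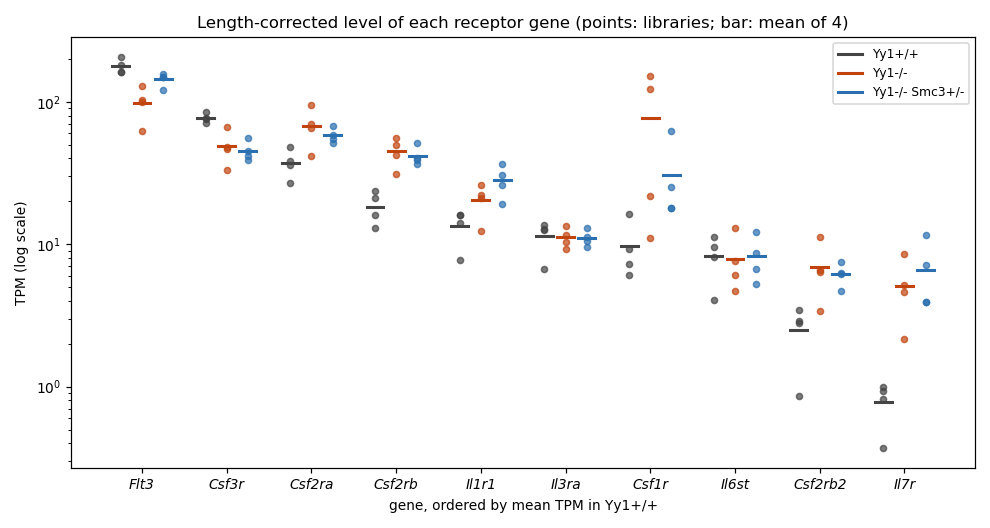
Deposited TPM (y axis, log scale) of each receptor gene, ordered along the x axis by its mean in Yy1+/+, with points for libraries and bars for the mean of 4. Flt3 has the highest mean in all 3 genotypes, and Il7r moves from 0.78 TPM in Yy1+/+ to 5.11 and 6.64 TPM in the groups labelled Yy1-/-.

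Sequence upstream of the start sites was examined because several members moved together. RefSeq windows of 250 bases before a start (GRCm38.p6) were at hand for 8 of the 10 genes, with 2 windows for Il1r1. None was at hand for Csf1r or Csf2rb, so the search does not cover these genes. Motifs were searched on both strands: AANATGGC for YY1, GAGGAAGT for PU.1, TGTGGT for RUNX factors and the loose C/EBP pattern TTNNGNAA. The first 3 had no match in any of the 9 windows, beside 3.90%, 2.44% and 14.04% of 32817 promoters of the same length, which says only that these letters are not in these windows. The C/EBP pattern occurred for Csf2ra, Il3ra, Il7r and Il1r1, beside 36.8% of all promoters. The windows of Csf2ra (19:61228419-61228668, minus strand, of which the last 11 bases lie inside the GENCODE gene) and of the first Il1r1 start (1:40224830-40225079, plus strand) are shown as 2 examples of called genes, picked after the matches were seen, with the matches in capitals. The second Il1r1 window, the Il7r window and that of Il3ra, which was not called, also hold a match and are not shown. The second Il1r1 window and the Il7r window lie within the GENCODE genes, and the Il3ra and Csf3r windows do so in part.
Csf2ra: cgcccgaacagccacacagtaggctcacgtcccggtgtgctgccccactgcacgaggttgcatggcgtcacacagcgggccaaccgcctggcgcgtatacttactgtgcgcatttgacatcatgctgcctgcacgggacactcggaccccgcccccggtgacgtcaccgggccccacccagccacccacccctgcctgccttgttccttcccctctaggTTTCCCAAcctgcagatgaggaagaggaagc
Il1r1: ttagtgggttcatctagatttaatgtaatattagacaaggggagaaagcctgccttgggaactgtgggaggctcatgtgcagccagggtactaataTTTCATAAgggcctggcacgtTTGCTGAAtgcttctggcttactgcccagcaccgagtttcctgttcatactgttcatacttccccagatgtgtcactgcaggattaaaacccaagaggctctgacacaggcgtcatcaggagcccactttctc
A match is a description of the sequence and not a binding site. Cebpa, which encodes C/EBP alpha, rose in Yy1-/- Smc3+/- from 8.83 ± 2.32 to 22.2 ± 3.08 CPM (log2 fold change 1.33 ± 0.28, edgeR adjusted p = 0.00363) and was among the 3 factors called higher in each comparison. A link between this rise, the matches and the levels of the receptor genes was not tested.

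Genes around the receptors were counted by role. Of 18 transcription factors known to act on receptor genes, 3 rose (Spi1, Cebpa and Irf8) and 7 fell in Yy1-/-, and 3 rose (Spi1, Cebpa and Ebf1) and 5 fell in Yy1-/- Smc3+/-, or 55.6% and 44.4% called, beside 35.2% and 29.9% of all genes. Gata2, a factor of stem and mast cells, fell from 309 ± 44.3 to 70.5 ± 14.8 and 87.1 ± 28.0 CPM (log2 fold change -2.13 ± 0.24 and -1.83 ± 0.23, edgeR adjusted p = 4.19e-05 and 0.000125). Of 33 other cytokine receptors tested, 8 rose and 6 fell in Yy1-/-, and 5 rose and 6 fell in Yy1-/- Smc3+/-, with medians of 0.22 and -0.06. These are 42.4% and 33.3% of the list, near the 35.2% and 29.9% of all genes called. Il2ra, the alpha chain of the IL-2 receptor, rose from 0.101 ± 0.161 to 5.71 ± 3.31 and 2.33 ± 0.955 CPM (edgeR adjusted p = 4.49e-05 and 0.00108).

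Downstream genes were read against the same shares of all genes called, 35.2% and 29.9%. Of 25 signal transducers, 4 rose and 7 fell in Yy1-/-, and 1 rose and 4 fell in Yy1-/- Smc3+/-, or 44% and 20% called. Jak1 fell from 460.1 ± 19.3 to 265 ± 29.2 and 269 ± 55.8 CPM (log2 fold change -0.79 ± 0.14 and -0.78 ± 0.14, edgeR adjusted p = 0.00106 and 0.0014), and Jak2, Stat4 and Stat5a also fell in both. Myd88, the adaptor of the IL-1 receptor, rose from 97.7 ± 15.7 to 217 ± 44.8 and 171 ± 11.3 CPM (1.15 ± 0.15 and 0.81 ± 0.15, edgeR adjusted p = 0.000147 and 0.00182). Among 19 feedback inhibitors 2 rose and 4 fell in Yy1-/-, and 0 rose and 4 fell in Yy1-/- Smc3+/-, or 31.6% and 21.1% called. The 4 that fell were Socs2, Socs5, Cish and Pias3 in both comparisons, but the call of Socs2 in Yy1-/- Smc3+/- (edgeR adjusted p = 0.0174) was lost without Yy1+/+ replicate 2 and without the libraries that kept Yy1 reads.

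Cish, a STAT5-induced inhibitor, went from 41.2 ± 3.44 to 21.1 ± 6.60 and 15.5 ± 0.599 CPM (log2 fold change -0.97 ± 0.20 and -1.41 ± 0.21, edgeR adjusted p = 0.00279 and 0.000301). Of 13 genes known to be induced by cytokine signals, 3 rose and 2 fell in Yy1-/-, and 3 rose and 1 fell in Yy1-/- Smc3+/-, or 38.5% and 30.8% called, near the share of all genes. Bcl2, the survival factor, rose from 89.3 ± 18.7 to 179.7 ± 30.9 and 224 ± 61.9 CPM (1.01 ± 0.21 and 1.33 ± 0.21, edgeR adjusted p = 0.00261 and 0.000523), the first of these not called on the log2 TPM scale (limma adjusted p = 0.053). Myc fell from 679.96 ± 73.3 to 368 ± 96.1 and 390.3 ± 45.9 CPM (edgeR adjusted p = 0.00159 and 0.00346). The ligands were mostly low in these cells, and 11 of 19 could be tested, of which 36.4% and 18.2% were called. Csf1 fell in both comparisons, from 12.4 ± 1.41 to 4.84 ± 3.38 and 4.34 ± 2.33 CPM (edgeR adjusted p = 0.0275 and 0.0218), as did Il7, from 4.52 ± 1.05 to 1.21 ± 0.520 and 1.06 ± 1.26 CPM (edgeR adjusted p = 0.0206 and 0.0188). The calls of both ligands were lost in several of the fits that left out 1 library, and that of Il7 also with DESeq2. No gene of these lists was called between the 2 groups labelled Yy1-/-, beside the background of 0.0360%.

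The profiles most like those of the called members were sought over the 12 libraries by the root mean square (rms) difference of centred log2 CPM. Prr5 was nearest to Flt3 (rms 0.11, with a mean of 26.5 CPM in the Yy1+/+ libraries, 17.2 in Yy1-/- and 25.5 in Yy1-/- Smc3+/-), followed by Gm17251 (0.15). Ifi211 and Lgals3 were nearest to Csf1r (0.38 and 0.39), and Prrg2 and Hps4 to Csf3r (both 0.14). D1Ertd622e (0.24) and Spi1 (0.26), the gene of PU.1, were nearest to Csf2ra. For Csf2rb these were Ino80dos (0.24) and Gtse1 (0.25), for Csf2rb2 Apobr (0.26) and Ttyh2 (0.36), for Il1r1 Zwilch (0.19) and Bcl2 (0.21), and for Il7r Hist1h2bm (0.57) and Pdcd1 (0.61). The rms differences of Il7r were the largest, but Il7r itself also varied most, with an rms of 1.56 about its own mean.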

How the data were processed

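RNA of sorted LSK cells was sequenced in 12 libraries, made with a SMART-Seq v4 kit that does not mark the strand, per the labels' protocols. The submitters' processing notes name STAR 2.5.2b, RSEM 1.3.0 and mm10. The deposited expected counts are RSEM's estimated counts per gene, with reads that match several genes divided between them. The deposited TPM values are corrected for length and depth, and so are the deposited FPKM values, used only to check the order of levels. The deposited effective lengths, per the file headers, served 1 alternative.

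Expected counts were rounded and tested with edgeR 4.0.16 (R 4.3.3) in 1 quasi-likelihood model over all 12 libraries with a term per genotype, TMM factors, edgeR's expression filter (at least 10 counts, total at least 15), and Benjamini-Hochberg adjustment over 16649 genes. CPM are TMM-scaled counts. Intervals are at 95%. Alternatives used DESeq2 1.42.0, limma 3.58.1 on log2(TPM + 1), other scaling and filters, and left out libraries. The fit was checked on simulated data. Symbols come from GENCODE M21 (GRCm38): 55094 identifiers matched with version, 300 with another version and 93 not at all. No 2 libraries held identical values.

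The first run used edgeR's older quasi-likelihood method, which called 5015, 4117 and 6 genes in the 3 comparisons. The bias-corrected method, with 5854, 4975 and 6, was made the main one after both had been seen, so that the processing matches an earlier analysis of these data. All 10 receptor genes had the same calls under both. The members and lists were chosen with earlier results of these data known, and the motifs and the sequences shown were chosen after the data were seen. By rule, all 10 members were named, with up to 4 called genes of the smallest p per list and comparison, and the 2 genes nearest in profile to each called member; Adgre1, Ly6c2 and other genes named without a p were taken from the lists after their values were seen. Some genes that meet this rule are not reported here.

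The labels do not say that libraries come from separate animals, so p-values measure the spread between these libraries, which may be in part technical.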

Additional observations from a re-analysis of the deposited data

Results flagged for a closer look

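Among 30 sets of 4 CPM values (10 receptor genes in 3 genotypes), 2 held a library far from the other 3, where chance gives about 1 in 20. Csf1r was higher in Yy1+/+ replicate 1 (49.3 CPM) than in the other Yy1+/+ libraries (22.3 to 26.6 CPM), and this gap was 0.843 of the whole range, above Dixon's 95% limit. The summed monocyte and macrophage markers were also highest of the Yy1+/+ libraries in this one, at 1259 CPM. Il3ra was lower in Yy1+/+ replicate 2 (6.54 CPM) than in the other Yy1+/+ libraries (10.3 to 10.6 CPM), a gap of 0.922 of the range. This library was the most deeply sequenced, with a summed expected count of 69086104.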

How the results depend on the processing

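Over all alternatives of the 10 receptor genes, 514 values kept direction and side of the threshold, 7 lost a call, 5 gained one and 11 changed sign; the lost and gained calls stand beside their genes above. Between the 2 groups labelled Yy1-/-, the count of all genes called moved from 6 to 53 with DESeq2 and to 311 without the libraries that kept Yy1 reads, where 1 receptor gene was called; the cause was not tested. Sign changes occurred only where no call was made: on the log2 TPM scale for Il6st in Yy1-/- (-0.0751) and Il3ra in Yy1-/- Smc3+/- (-0.0103), and between the 2 groups labelled Yy1-/- for Csf2rb2 (0.0735 without Yy1-/- replicate 2, over a range of -0.49 to 0.0735 with single libraries left out), Il7r (-0.0834 without Yy1-/- Smc3+/- replicate 4, over a range of -0.0834 to 0.57), and Il6st, which was -0.0025 with no filter, -0.0508 with length offsets, -0.31 without the libraries that kept Yy1 reads, and -0.15 to 0.30 when single libraries were left out. Yy1 itself was then 0.18 without the libraries that kept its reads. Leaving out 1 library moved the difference in the Csf2rb2 share from -0.63 to 3.24 percentage points in Yy1-/- against Yy1+/+, from -0.38 to 3.49 in Yy1-/- Smc3+/- against Yy1+/+ and from -0.75 to 1.83 between the 2 groups labelled Yy1-/-, and the difference in the log2 ratio of Csf2rb to Il3ra between the 2 groups labelled Yy1-/- from -0.16 to 0.0453. The order of levels was the same by FPKM. No paired analysis was possible because the labels carry nothing that pairs libraries across genotypes. DESeq2 gave no adjusted p for Yy1. Il7r in Yy1+/+ rests on the fewest reads, 65 expected counts in its lowest library.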
